A study of Mus musculus with 1 sample.

Results

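The 36 genes described here encode the machinery that takes secretory proteins into the endoplasmic reticulum (ER), folds them, disposes of those that fail, and senses the load. They were listed by symbol and not by a cut on their measured values, out of 32285 genes in the count table. Earlier results of these data were known when they were chosen, so the list is not blind to them. They fall into 11 chaperones and co-chaperones, 6 protein disulfide isomerases, 6 sensors and transcription factors of the unfolded protein response, 4 genes of ER-associated degradation, and 9 genes for entry into the ER and retrieval to it. The data are 1 droplet library of single cells from the pancreata of 2-week-old Scap f/f mice, 5 to 6 of them pooled. These mice carry floxed Scap alleles and no Cre recombinase, so they are the control genotype of the study. The library from mice with pancreatic deletion of Scap was not analysed here, and every comparison below is between cell classes of the same library, not between genotypes.

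Secretory proteins enter the ER through the Sec61 channel, where signal peptidase removes the signal peptide and chaperones and disulfide isomerases fold the chain. When unfolded chains accumulate, 3 membrane sensors, IRE1 (gene Ern1), PERK (Eif2ak3) and ATF6 (Atf6), raise the expression of chaperones, slow translation and direct failed proteins to degradation. The acinar cell of the exocrine pancreas makes digestive enzymes in very large amounts and holds an extensive rough ER, and is a textbook setting of this pathway.

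Part of the gene set has a known promoter sequence for this response, the ER stress element, which is bound by ATF6 and XBP1 together with NF-Y. A RefSeq promoter, from 250 bases before to 50 bases after the start site (build GRCm38.p6), was matched for 28 of the 36 genes. Hyou1, Manf, Erp27, Atf6, Sec61a1, Ssr2, Sec11c and Kdelr2 had no entry. The element, spelled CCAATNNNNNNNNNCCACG and searched on both strands, was found in 8 of the 28, Hspa5, Hsp90b1, Calr, Canx, Dnajc3, Creld2, Pdia6 and Syvn1. It was found in 0.119% of all 32851 promoters of the same length, or 0.137% of 27025 genes. The core of another response motif, the UPR element (TGACGTG, both strands), was present in Hspa5 alone of the 28, and in 2.22% of all genes. The pair of motifs in Hspa5 did not overlap. A match is a description of the letters and not a shown binding site.

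The promoter of Hspa5 is given first, because this gene encodes BiP, the main ER chaperone, and because its window held both motifs. These are the 250 bases before its start site (chr2:34771840-34772089, plus strand, GRCm38.p6). Capitals mark the CCAAT and CCACG ends of the ER stress element near the right end and the TGACGTG core upstream of it.
Hspa5: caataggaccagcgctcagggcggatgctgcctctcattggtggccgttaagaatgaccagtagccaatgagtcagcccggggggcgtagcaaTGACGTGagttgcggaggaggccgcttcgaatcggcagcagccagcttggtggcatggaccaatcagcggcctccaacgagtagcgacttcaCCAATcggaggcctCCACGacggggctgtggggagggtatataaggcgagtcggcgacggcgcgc

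The other 7 are shown as the element with 15 bases on each side, so that the letters between the fixed ends can be compared. Each is written on the strand of its gene, 5′ to 3′, with the fixed ends in capitals. In Calr, Creld2 and the second match of Hsp90b1 the element lies on the opposite strand and reads CGTGG to ATTGG. The stretches are chr10:86705518-86705671 (minus) for Hsp90b1, which held 2 matches, chr8:84847060-84847108 (minus) for Calr, chr11:50325785-50325833 (minus) for Canx, chr14:118937812-118937860 (plus) for Dnajc3, chr15:88819505-88819553 (plus) for Creld2, chr12:17266476-17266524 (plus) for Pdia6 and chr19:6046517-6046565 (plus) for Syvn1.
Hsp90b1: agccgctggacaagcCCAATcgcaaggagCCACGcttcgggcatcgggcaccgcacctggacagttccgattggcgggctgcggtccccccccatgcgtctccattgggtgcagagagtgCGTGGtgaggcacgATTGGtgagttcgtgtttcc
Calr: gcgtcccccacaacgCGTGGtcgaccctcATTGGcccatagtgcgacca
Canx: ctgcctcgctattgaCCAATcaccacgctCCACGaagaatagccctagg
Dnajc3: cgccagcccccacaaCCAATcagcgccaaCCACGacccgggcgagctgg
Creld2: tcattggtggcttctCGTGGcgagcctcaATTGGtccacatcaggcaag
Pdia6: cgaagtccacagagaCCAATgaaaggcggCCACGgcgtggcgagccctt
Syvn1: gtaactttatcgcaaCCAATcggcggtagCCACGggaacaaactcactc

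Across these promoters the centre of the element lay from 34.5 bases before the start site in Syvn1 to 202.5 bases before it in Hsp90b1. In Hspa5 it lay 55.5 bases before the start and in Canx 135.5 bases before it.

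**Figure D1:**
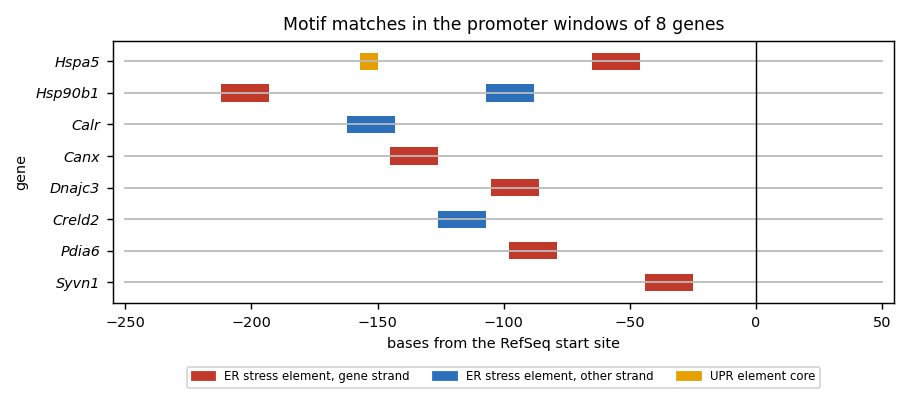
Matches to the ER stress element (red on the gene's strand, blue on the other) and to the UPR element core (orange) in the promoter windows of 8 genes; the horizontal axis gives bases from the RefSeq start site at 0, and grey lines span the 300 bases searched. All 9 elements lie before the start site, and Hsp90b1 carries 2 of them.

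Counts are unique molecular identifiers (UMIs), 1 per captured molecule. The library held 51540177 UMIs in 11789 barcodes, with 500 to 174899 UMIs each. The 10947 barcodes kept had more than 800 and fewer than 100000 UMIs, less than 15% of them mitochondrial, and a median of 2650.0 UMIs. Marker genes, none of which belongs to the 36, placed 8696 barcodes in 11 classes of at least 30 cells, and 1034 barcodes that passed several gates were left out of every class. The classes were 1116 acinar cells, 44 duct-like cells, 5231 fibroblasts, 218 mesothelial cells, 169 mural cells, 138 endothelial cells, 51 Schwann cells, 942 T cells, 315 B cells, 58 mature dendritic cells and 414 red blood cells. Every marker of each marker-gated class was detected in it. The classes were gated on these same markers, so this is no separate check of the names. The names rest on these gates and not on an annotation by the authors. There was 1 library and no replicate, so intervals are exact 95% intervals that cover counting error only and no test was made.

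Levels are given as CPM, the UMIs of a gene per 1000000 UMIs of its class. Digestive enzymes took 43.2% of acinar UMIs and 0.817% of fibroblast UMIs, which lowers the CPM of every other acinar gene. For this reason counts over the 36 genes are given over all UMIs and without enzyme UMIs in the acinar comparisons, and a single ratio is without enzyme UMIs unless stated. The 36 genes together held 1.08% of acinar UMIs, or 1.90% of those left without enzymes, and 0.687% of fibroblast UMIs. The counts come from the 3′ ends of transcripts, so a level is compared between classes for the same gene and not between genes.

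The acinar class carried more transcript of most of the 36 genes than the fibroblast class, the largest class of the library, but over all UMIs the difference was uneven. Over all UMIs, 11 of the 36 genes were at least 2-fold higher in acinar cells, beside 12.5% of all 15047 genes with at least 20 UMIs in the 2 classes. These 11 were Hyou1, Sdf2l1, Pdia2, Erp27, Ern1, Eif2ak3, Atf6, Sel1l, Herpud1, Edem1 and Sec11c. Another 3, Ddit3, Srp14 and Kdelr2, were at least 2-fold lower, beside 42.6% of all genes. The median ratio of the 36 was 1.48, and that of all genes was 0.580.

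Without enzyme UMIs, 22 of the 36 were at least 2-fold higher in acinar cells, beside 21.2% of all genes, and 0 were 2-fold lower, beside 22.4%. The median ratio of the 36 was then 2.59, and that of all genes 1.01. Among all 11 classes the acinar level was the highest for 20 of the 36 genes over all UMIs, beside 3.18% of 16140 genes, and for 31 without enzyme UMIs, beside 8.33%. The highest value was taken without regard to its interval. Some of the 31 lay close to another class, as Dnajb9 at 120.5 CPM (112.8 to 128.6) against 110.5 (91.2 to 132.6) in mesothelial cells. Genes with few UMIs can be highest in a small class by counting error, which can lower the shares of all genes. The 5 exceptions without enzyme UMIs were Ddit3, highest in mature dendritic cells, Syvn1 and Srp14, highest in B cells, Sec61g, highest in red blood cells, and Kdelr2, highest in fibroblasts. The ranks of Syvn1 and Srp14 were narrow. Syvn1 was at 47.45 CPM in B cells, from 29 UMIs, and 39.9 in acinar cells. Srp14 was at 191.4 CPM in B cells and 185.7 in Schwann cells. Globin UMIs were kept in the denominator for these rankings. The summed level of a list of 9 immediate-early and heat-shock genes that respond to tissue dissociation was 6622.8 CPM in acinar cells and 13076.3 CPM in fibroblasts without enzyme UMIs, and its part in the differences was not tested.

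**Figure D2:**
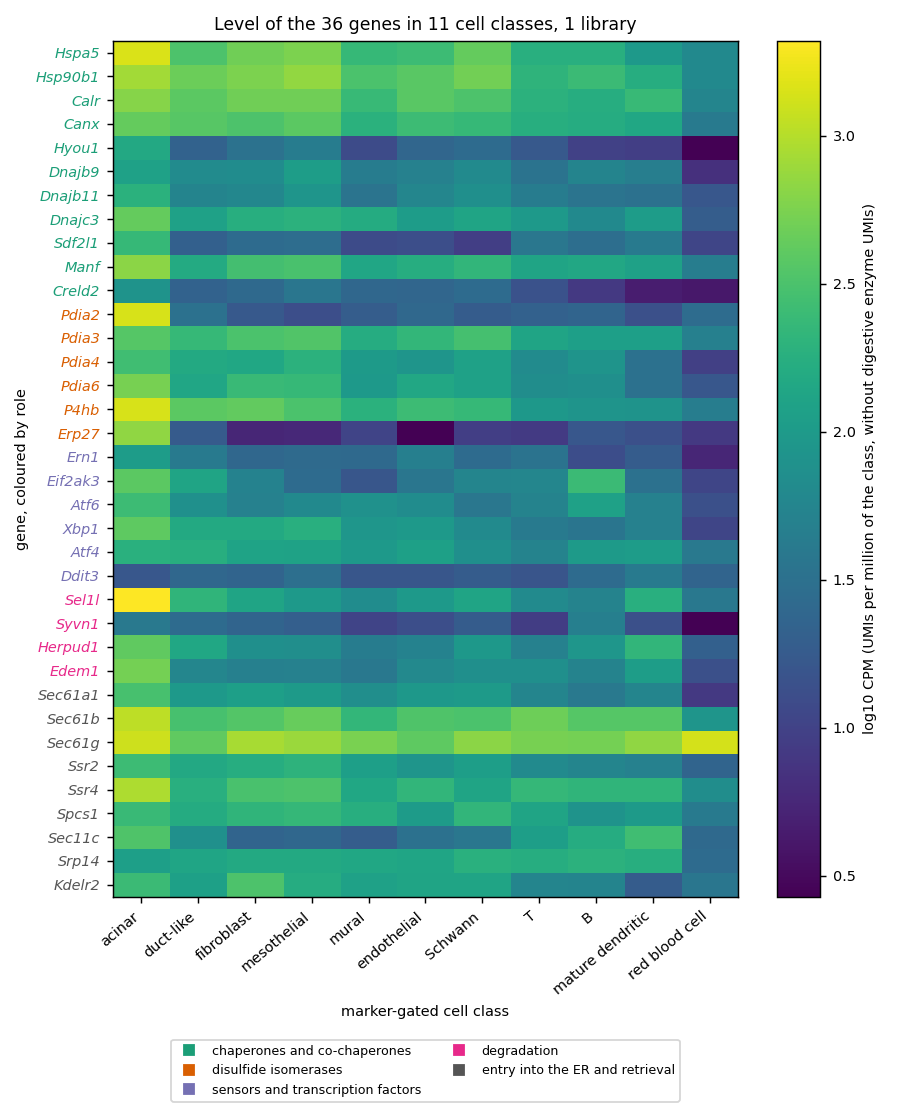
Level of each of the 36 genes (rows, coloured by role) in 11 cell classes (columns), as log10 of CPM without digestive enzyme UMIs in 1 library. The acinar column is the highest in 31 rows, and the red blood cell column is the lowest in 29, with globins in its denominator (2 with globin UMIs also left out of every class).

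The disulfide isomerases held the pair of genes with the largest differences. Pdia2 encodes a protein disulfide isomerase known from the pancreas. Its level without enzyme UMIs was 1386.2 CPM in acinar cells (interval 1359.9 to 1412.9), 31.8 CPM in duct-like cells and 17.1 CPM in fibroblasts, and the other classes lay between 13.5 and 28.6 CPM. A UMI of Pdia2 was found in 92.7% of acinar cells and 5.58% of fibroblasts. The acinar level was 81.3-fold that of fibroblasts (72.6 to 91.3) without enzyme UMIs and 46.5-fold over all UMIs.

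Erp27, a family member without the catalytic cysteines that binds unfolded chains, was at 686.0 CPM in acinar cells and 5.52 CPM in fibroblasts. The ratio was 124-fold (102 to 153), or 71.15-fold over all UMIs. Its highest level outside acinar cells was 18.2 CPM, in duct-like cells. If the enzyme UMIs of fibroblasts came with Pdia2 and Erp27 in the acinar proportion, they would bring 274 Pdia2 UMIs of the 312 counted and 136 Erp27 UMIs against 101 counted. In T cells the same reckoning gave 42.4 of 49 for Pdia2 and 21.0 against 19 for Erp27. In fibroblasts and T cells the counts of Pdia2 were somewhat above what free acinar RNA in that proportion would give. The counts of Erp27 were below it, so for Erp27 the reckoning gave more than was counted. In duct-like cells the reckoning gave 12.2 of the 16 Erp27 UMIs counted.

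P4hb, the abundant isomerase PDI, was at 1412.1 CPM in acinar cells and 422.2 CPM in fibroblasts, a ratio of 3.35 (3.25 to 3.44), or 1.915 over all UMIs. Pdia6 had a ratio of 2.17 and Pdia4 of 1.91, or 1.24 and 1.10 over all UMIs. Pdia3, which acts with calnexin and calreticulin on glycoproteins, had a ratio of 1.14 without enzyme UMIs and 0.654 over all UMIs, so its direction depended on the denominator.

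The chaperones had smaller ratios than Pdia2 and Erp27, and uneven ones. Hspa5 (BiP) was at 1420.8 CPM in acinar cells (1394.1 to 1447.8), followed by 560.0 in mesothelial cells and 493.3 in fibroblasts. The ratio of acinar cells to fibroblasts was 2.88 without enzyme UMIs (2.80 to 2.96) and 1.65 over all UMIs. Sdf2l1, part of a chaperone complex with the protein of Dnajb11, had the largest ratio of the group at 8.50 (7.70 to 9.41), with 233.3 CPM in acinar cells and 27.4 in fibroblasts. Hyou1, a nucleotide exchange factor for BiP, followed with 4.50, and over all UMIs the ratios of this pair were 4.87 and 2.57. The ratios of the BiP co-chaperones Dnajb11 and Dnajc3 were 3.26 and 2.50, that of Creld2, an ER stress-inducible protein, was 3.14 and that of Manf, a secreted ER-resident factor that binds BiP, was 2.31. Over all UMIs these 4 ratios were 1.86, 1.43, 1.80 and 1.32. Manf overlaps Rbm15b on the same strand, so its counts may be shared with it.

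The lectin chaperones and the ER HSP90 had the smallest ratios of the chaperones without enzyme UMIs. Hsp90b1 (GRP94) had a ratio of 1.47 without enzyme UMIs and 0.840 over all UMIs, with a same-strand overlap with Gm15344. Calr, calreticulin, had 1.25 and 0.716, and Canx, calnexin, had 1.32 and 0.758. Each of these 3 genes thus lay above 1 by one denominator and below 1 by the other. Dnajb9, a BiP co-chaperone, was at 1.77 and 1.02. Over all UMIs the highest level of Hsp90b1, Calr, Canx and Dnajb9 was in mesothelial cells.

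Sel1l, of ER-associated degradation, had the largest ratio after Pdia2 and Erp27. It encodes the adaptor of the HRD1 ubiquitin ligase of the ER membrane. Its level was 2090.6 CPM in acinar cells (2058.3 to 2123.4), 208.9 in duct-like cells, 179.6 in mature dendritic cells and 130.1 in fibroblasts. The ratio to fibroblasts was 16.1 without enzyme UMIs (15.4 to 16.8) and 9.20 over all UMIs. Edem1, which passes misfolded glycoproteins on for disposal, was at 517.9 CPM in acinar cells and 48.5 in fibroblasts, a ratio of 10.7 (9.93 to 11.5), or 6.12 over all UMIs. Herpud1, a membrane protein of the same machinery, was at 408.5 and 73.4 CPM, a ratio of 5.57, or 3.19 over all UMIs.

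Syvn1 encodes HRD1 itself, the ligase to which SEL1L binds, and did not show the difference of Sel1l. It had 304 UMIs in acinar cells, or 39.9 CPM (35.6 to 44.6), against 22.7 CPM in fibroblasts (20.6 to 24.97). The ratio was 1.76 without enzyme UMIs and 1.01 (0.866 to 1.17) over all UMIs.

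All 3 sensors were at least 2-fold higher in acinar cells by both denominators, but over all UMIs this was lost when the deepest cells were left out. Without enzyme UMIs Eif2ak3 was at 390.4 CPM in acinar cells and 51.0 in fibroblasts, a ratio of 7.66 (7.11 to 8.25). Atf6 was at 254.9 and 50.01 CPM, a ratio of 5.10, and Ern1 was at 107.6 and 24.9 CPM, a ratio of 4.33. The 362 acinar cells with at least 10000 UMIs held 10431154 of the 13415686 acinar UMIs. Over all UMIs the ratios were 4.38 for Eif2ak3, 2.92 for Atf6 and 2.48 for Ern1, and with all barcodes limited to fewer than 10000 UMIs they were 1.80, 1.80 and 0.977. With that limit Sel1l moved from 9.20 to 5.23 and Pdia2 from 46.5 to 55.1. That limit was applied over all UMIs only, so whether the sensors stay 2-fold higher under it without enzyme UMIs was not computed. Of the 754 acinar barcodes below 10000 UMIs, 509 held little of the nuclear RNA Malat1. The levels of the 3 sensors were lower in those 509 than in the rest of the 754, as described below.

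Of the transcription factors of the response, Xbp1, whose mRNA is spliced by IRE1, was at 396.6 CPM in acinar cells and 153.8 in fibroblasts, a ratio of 2.58, or 1.48 over all UMIs. The counts do not separate the spliced from the unspliced form. Atf4, translated when PERK slows protein synthesis, had a ratio of 1.45 without enzyme UMIs and 0.832 over all UMIs. Ddit3, which encodes the stress factor CHOP, was low in every class. It had 123 UMIs in acinar cells, or 16.2 CPM, and 419 in fibroblasts, or 22.9 CPM, and its ratio was 0.705 (0.572 to 0.864) without enzyme UMIs and 0.404 over all UMIs. With globins in the denominator its highest level was 41.4 CPM in mature dendritic cells, from 9 UMIs. With globin UMIs also left out, red blood cells were at 98.4 CPM (57.3 to 157.5), from 17 UMIs.

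Among the genes for entry into the ER, Sec11c stood apart. It encodes a catalytic subunit of signal peptidase, and it was at 333.6 CPM in acinar cells and 22.7 in fibroblasts, a ratio of 14.7 (13.2 to 16.3), or 8.399 over all UMIs. Spcs1, another subunit of the same complex, had a ratio of 1.18 without enzyme UMIs and 0.674 over all UMIs. The 3 subunits of the Sec61 channel had ratios of 3.05 for Sec61b, 2.61 for Sec61a1 and 1.43 for Sec61g. Over all UMIs they were 1.745, 1.49 and 0.820, so the direction of Sec61g turned. Of the translocon-associated proteins, Ssr4 had a ratio of 2.995 and Ssr2 of 1.499. Over all UMIs the ratio of Ssr4 was 1.71 and that of Ssr2 turned to 0.858.

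Srp14, of the signal recognition particle, and Kdelr2, the receptor that returns ER residents from the Golgi, were lower in acinar cells. Srp14 was at 114.9 CPM in acinar cells and 151.2 in fibroblasts, a ratio of 0.760 (0.703 to 0.820), or 0.435 over all UMIs. Kdelr2 was at 250.3 CPM in acinar cells, 325.3 in fibroblasts and 165.2 in mesothelial cells, with 18.4 to 131.5 in the other classes. Its ratio was 0.770 (0.731 to 0.810), or 0.441 over all UMIs.

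**Figure D3:**
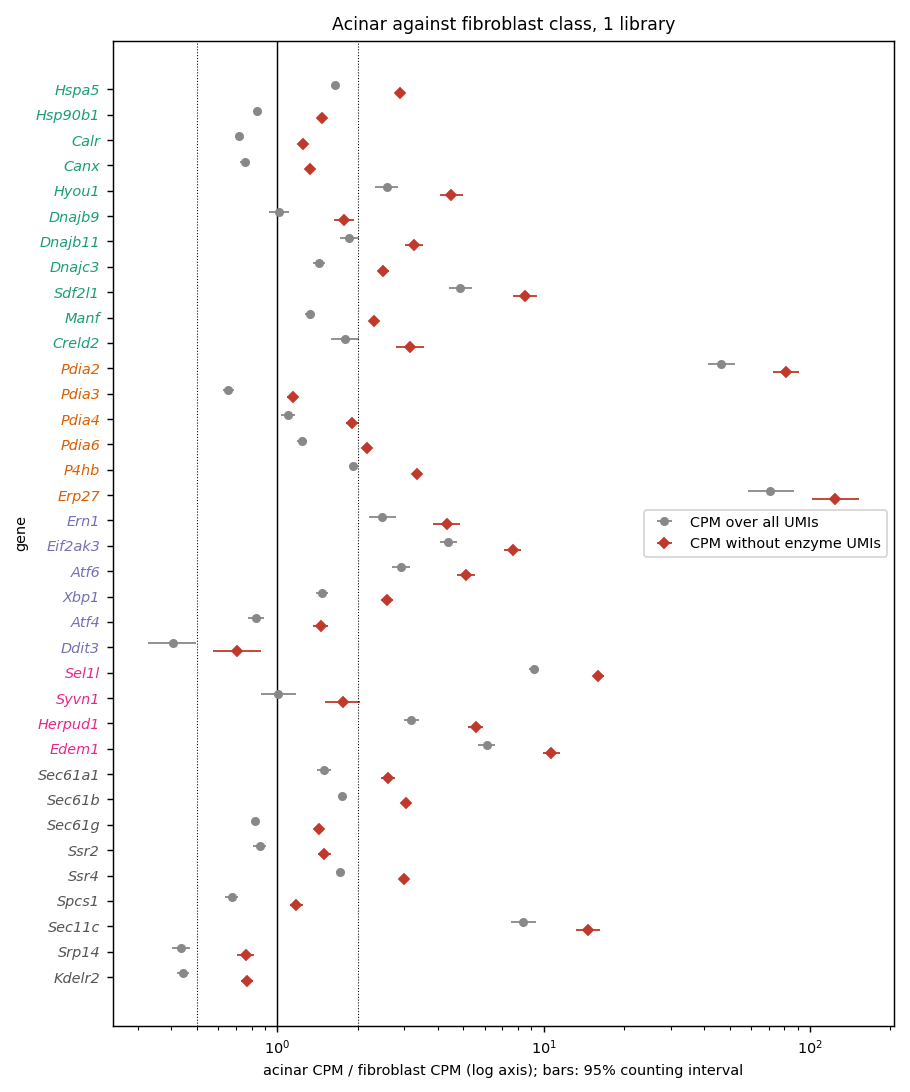
Ratio of the acinar to the fibroblast level for the 36 genes on a log axis, over all UMIs (grey circles) and without enzyme UMIs (red diamonds), with 95% counting intervals; dotted lines mark 2-fold. Erp27 (124-fold) and Pdia2 (81.3-fold) lie far to the right, and Ddit3, Srp14 and Kdelr2 lie left of 1 by both denominators.

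The genes whose promoters held an exact match to the ER stress element were not those with the largest ratios. The 8 genes with the element had ratios without enzyme UMIs from 1.25 to 3.14, with a median of 1.96, and 4 of them were at least 2-fold higher in acinar cells. The 20 genes with a promoter entry and no exact match ranged from 0.705 to 81.3, with a median of 3.02, and 12 of them were at least 2-fold higher. Of all genes, 21.2% were at least 2-fold higher. Only the exact spelling was searched, so a variant of the element counts here as no match. Of the genes with a ratio above 5, Pdia2, Sel1l, Edem1, Sdf2l1, Eif2ak3 and Herpud1 had a promoter entry and no match, while Erp27, Sec11c and Atf6 had no entry.

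Other genes of the pathway were taken from lists chosen by function. Their counts stand beside 21.2% of all genes at least 2-fold higher and 22.4% lower without enzyme UMIs, and 12.5% and 42.6% over all UMIs. Ratios of single genes in these lists are without enzyme UMIs. Of 25 further genes of the translocon, signal peptidase, signal recognition particle and oligosaccharyltransferase, 11 were at least 2-fold higher in acinar cells without enzyme UMIs and 0 lower, with a median ratio of 1.82. Over all UMIs 2 were higher and 2 lower, with a median of 1.04. Spcs3, a signal peptidase subunit, had the highest ratio at 5.79, followed by the translocation protein gene Tram1 at 3.55. The lowest were Sec61a2 at 0.687 and Sec11a, the paralog of Sec11c, at 0.622. Sec11a and Sec11c thus lay on opposite sides of 1, as they did over all UMIs, at 0.356 and 8.399.

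Of 15 measured genes of ER folding, 8 were higher and 2 lower without enzyme UMIs, with a median ratio of 2.03, and over all UMIs 4 were higher and 4 lower, with a median of 1.16. The ER oxidase gene Ero1lb had a ratio of 37.3 and the prolyl isomerase gene Fkbp11 of 9.44, and the lowest were Dnajc10 at 0.465 and Fkbp14 at 0.174. Of 11 further degradation genes, 4 were higher and 0 lower without enzyme UMIs, with a median of 1.71, and over all UMIs 3 were higher and 1 lower, with a median of 0.978. Derl3, a derlin of the ER membrane, had a ratio of 63.1 and Edem2 of 9.17, and the lowest were Ube2j1 at 1.07 and Selenok at 0.716, or 0.614 and 0.410 over all UMIs.

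Of 14 further signalling genes, 4 were higher and 0 lower without enzyme UMIs, with a median of 1.20, and over all UMIs 4 were higher and 5 lower, with a median of 0.689. The acinar transcription factor gene Bhlha15 had 756 UMIs in acinar cells and 12 in fibroblasts, a ratio of 151 (86.1 to 294). Asns, asparagine synthetase, a known target of ATF4, had a ratio of 60.4. The lowest were Creb3l1 at 0.536 and Ppp1r15a, which encodes the phosphatase subunit that reverses the PERK signal, at 0.513. Of 21 genes of ER to Golgi transport, 7 were higher without enzyme UMIs, led by Sec23b at 3.52 and Bet1 at 2.57, and 1 was lower, Kdelr3 at 0.367, with Sar1a next at 0.697. The median was 1.28, and over all UMIs 1 was higher and 3 lower, with a median of 0.7315. Collagen folding ran the other way, with 11 of 12 genes at least 2-fold lower in acinar cells and 0 higher without enzyme UMIs, and a median ratio of 0.160. The lysyl hydroxylase gene Plod2 was lowest at 0.0781, with P3h3 at 0.0820, and P3h4 and P4ha3 were highest at 0.528 and 0.430. Over all UMIs, 12 of these 12 genes were at least 2-fold lower, with a median of 0.0919.

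The duct-like class was gated on epithelial and ductal markers, and had lower levels than acinar cells of many of the 36 genes without enzyme UMIs. Over all UMIs, 15 of the 36 genes were at least 2-fold lower in duct-like than in acinar cells, beside 8.85% of 12897 genes, and 2, Ddit3 and Srp14, were higher, beside 55.8%. Without enzyme UMIs 24 were lower, beside 15.7% of genes, and 0 higher, beside 23.4%. The median ratio of the 36 was then 0.329, and that of all genes 1.27. The duct-like class had 44 cells with a median of 10037.5 UMIs.

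Pdia2 had the lowest ratio of duct-like to acinar cells of the 36 genes, 0.0229 (0.0152 to 0.0332) from 28 UMIs, and in the acinar proportion to the enzymes 24.7 of those 28 UMIs would be free RNA. Erp27 had a ratio of 0.0265, Sdf2l1 of 0.0876, Sel1l of 0.0999 and Edem1 of 0.110. By contrast Canx had a ratio of 0.864 (0.768 to 0.968), Atf4 of 0.948 (0.798 to 1.12) and Srp14 of 1.17 (0.954 to 1.42), the intervals of the last pair including 1. Over all UMIs these 3 lay above 1, at 1.498 (1.33 to 1.68) for Canx, 1.64 (1.38 to 1.94) for Atf4 and 2.02 (1.655 to 2.455) for Srp14. Eif2ak3, at 129.5 CPM, was higher in duct-like cells than in fibroblasts, at 51.0 CPM.

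Acinar barcodes below 10000 UMIs differed in how much nuclear RNA they held, and the 3 sensors were higher where it was higher. Malat1, a long RNA kept in the nucleus, was at least 0.5% of non-enzyme UMIs in 245 of these barcodes and less in 509. The 509 had a median of 728 genes, 51.0% enzyme UMIs and 1.08% globin UMIs, against 1124.0, 39.2% and 0.183% in the 245. All are counted among the 1116 acinar cells, and whether each of the 509 is a whole cell was not tested. The share is a range with no gap, and 81 of the 754 barcodes lay between 0.4% and 0.6%. Of the 36 genes, 35 had at least 20 UMIs over both sets, and the exception was Ddit3 with 19 UMIs. In the nuclear-RNA-rich set 3 of the 35 were at least 2-fold higher by both denominators, beside 35.1% of 7975 genes over all UMIs and 22.3% without enzyme UMIs. The 3 are 8.57% of the 35, a smaller share than among all genes. In the same set 0 were 2-fold lower, beside 0.564% and 1.32%.

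Those 3 genes were Ern1, Eif2ak3 and Atf6. Without enzyme UMIs Ern1 was at 76.1 CPM in the rich and 25.2 in the poor set, a ratio of 3.02 (1.82 to 5.16). Eif2ak3 was at 286.8 and 98.5 CPM, a ratio of 2.91 (2.26 to 3.77), and Atf6 at 248.8 and 103.8 CPM, a ratio of 2.40 (1.85 to 3.11). Sel1l had a ratio of 1.58 (1.45 to 1.73). Most other members lay below 1, with a median over the 35 of 0.846, and the median of all genes was 1.30. In the nuclear-RNA-poor set Ern1 was therefore near its fibroblast level of 24.9 CPM, while Pdia2, at 2021.0 CPM, and Erp27, at 798.8 CPM, were higher than in the rich set, at 1484.7 and 556.2 CPM.

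The sensors are also the longest of these genes. Atf6 spans 163 kb of the genome, Ern1 93.2 kb and Eif2ak3 60.7 kb in GENCODE M21 (GRCm38), and Sel1l spans 43.1 kb. The 6 members of at least 40 kb had a median ratio of 1.99 and the 29 shorter ones of 0.815. The corresponding medians over all genes were 1.78 and 1.05. Manf, at 53.7 kb and sharing its strand with Rbm15b, had a ratio of 0.761, and Dnajc3, at 43.7 kb, of 0.930. Spearman's rho between span and ratio was 0.371 across the 35 genes and 0.540 across 7971 genes, as a description of 1 library whose genes are not independent. Cell Ranger from version 7 counts intronic reads by default, and the share of intronic UMIs in each gene was not tested, since the deposited counts do not separate them.

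**Figure D4:**
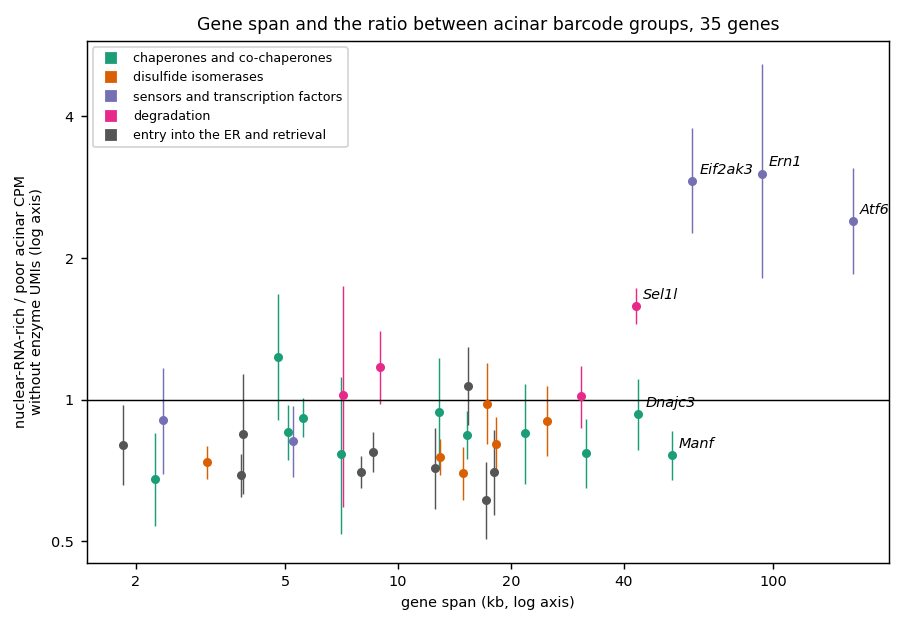
Ratio of the level in nuclear-RNA-rich to nuclear-RNA-poor acinar barcodes (without enzyme UMIs, log axis, 95% counting intervals) against the genomic span of each of 35 genes (kb, log axis), coloured by role. Ern1, Eif2ak3 and Atf6 lie above 2 at spans over 60 kb, while Manf and Dnajc3 lie below 1.

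The acinar cells with at least 10000 UMIs differed by less than 2-fold from the nuclear-RNA-rich barcodes below that limit in each of the 36 genes. Without enzyme UMIs the counting interval lay above 1 for 16 of the 36 and below 1 for 2. By both denominators 0 of the 36 genes were 2-fold higher, beside 7.99% of 12280 genes over all UMIs and 9.06% without enzyme UMIs, and 0 were 2-fold lower, beside 8.22% and 7.35%. The median ratio of the 36 was 1.13 without enzyme UMIs, and that of all genes 1.05. The largest ratios were 1.63 (1.22 to 2.23) for Ern1, 1.56 (1.34 to 1.82) for Eif2ak3 and 1.41 for Sel1l. The lowest was 0.736 (0.687 to 0.789) for Sec61g, followed by 0.859 for Pdia2.

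Immune cells had lower levels of many of the 36 genes than fibroblasts. In T and B cells the median ratio lay below that of all genes, and in mature dendritic cells it was close to it. In T cells 16 of the 36 genes were at least 2-fold lower than in fibroblasts over all UMIs, beside 32.7% of 14241 genes, and 1, Sec11c, was higher, beside 19.8%. In B cells 15 were lower, beside 35.4% of 13891 genes, and 5 were higher, beside 19.3%. In mature dendritic cells 16 were lower, beside 46.2% of 13777 genes, and 4 were higher, beside 17.1%. The median ratio of the 36 was 0.540 in T cells, where that of all genes was 0.936, 0.556 in B cells, where that of all genes was 0.880, and 0.609 in mature dendritic cells, where that of all genes was 0.585. The share of the 36 at least 2-fold lower was 44.4% in T cells, 41.7% in B cells and 44.4% in mature dendritic cells. In mature dendritic cells this was below the share of all genes, and in B cells it was not far above it. The minimum of 20 UMIs was over both classes together, and fibroblasts held 18447226 UMIs against 218988 in mature dendritic cells. A gene with few UMIs could thus count as lower by lacking a UMI in the small class, which can raise the share of all genes. A share over genes with counts like those of the 36 was not computed. Mesothelial cells had 0 genes of the 36 at least 2-fold higher or lower than fibroblasts, beside 16.3% and 14.6% of 13987 genes. Smaller differences were present, with counting intervals above 1 for 7 of the 36 and below 1 for 5. Genes with few UMIs can raise both shares of all genes here too. Fibroblast markers were 1.475% of mesothelial UMIs and 4.823% of fibroblast UMIs, and 302 barcodes that passed both gates were left out. The part of this overlap was not tested. The immune classes also differed from fibroblasts in the dissociation genes, whose part was not tested. Without enzyme UMIs these were at 1926.2 CPM in T cells, 2212.1 in B cells and 2196.5 in mature dendritic cells, against 13076.3 in fibroblasts.

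Of the 36 genes, 10 were at least 2-fold lower in each of the 3 immune classes, all compared with the same fibroblasts, beside 22.9% of 13699 genes. This is near the share of all genes, which genes with few UMIs can raise, so the 10 are given as a description only. They were Hspa5, Hsp90b1, Calr, Pdia3, Pdia6, P4hb, Xbp1, Sec61a1, Ssr2 and Kdelr2. P4hb had a ratio to fibroblasts of 0.220 in T cells, 0.201 in B cells and 0.196 in mature dendritic cells. Xbp1 was at 40.8 CPM in T cells, 35.6 in B cells and 50.2 in mature dendritic cells over all UMIs, against 152.5 in fibroblasts. Kdelr2 had the lowest ratio of the 36 genes in each of the 3 immune classes. It was 0.169 in T cells and 0.0566 in mature dendritic cells, the latter from 4 UMIs, and B cells held 33 UMIs.

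Sec11c was higher in all 3 immune classes. Over all UMIs its level was 109.9 CPM in T cells (96.8 to 124), 161.8 in B cells (132 to 197) and 269.4 in mature dendritic cells (205 to 348), against 22.6 in fibroblasts. A UMI was found in 201 of 942 T cells, 75 of 315 B cells and 28 of 58 mature dendritic cells. In the last class 61.0% of the 59 UMIs were in 10 cells.

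Eif2ak3 was higher in B cells. It had 153 UMIs in 97 of 315 B cells, with at most 7 in 1 cell, a level of 247.6 CPM over all UMIs (210 to 290), against 56.2 in T cells and 50.6 in fibroblasts. The ratio to fibroblasts was 4.89 (4.10 to 5.81). Over all UMIs the B cell level exceeded the acinar level of 221.7 CPM, the intervals overlapping. Thinned to 800 UMIs per cell, 16.2% of B cells had a UMI of Eif2ak3, against 4.57% of T cells and 4.21% of fibroblasts. Atf6 was at 119.8 CPM in B cells, a ratio to fibroblasts of 2.41 (1.88 to 3.06), while Ern1 was at 12.9 CPM from 8 UMIs, a ratio of 0.525 with an interval that includes 1 (0.225 to 1.04). Syvn1 had 29 UMIs in 29 B cells, a ratio of 2.09 (1.38 to 3.04). Erp27 was counted as higher in B cells from 10 UMIs and in mature dendritic cells from 3 UMIs, and of the 10, 6.10 would be free RNA in the acinar proportion.

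Herpud1 was at 214.6 CPM in mature dendritic cells over all UMIs (158 to 285), a ratio to fibroblasts of 2.95 (2.16 to 3.94), with a UMI in 30 of 58 cells. Of its 47 UMIs there, 51.1% were in 10 cells. Malat1 was 5.97% of non-enzyme UMIs in mature dendritic cells and 1.14% in fibroblasts, and the part of this difference was not tested. Edem1 had a ratio of 2.28 from 24 UMIs in mature dendritic cells. Sel1l had a ratio of 1.38 there, with an interval that includes 1 (0.979 to 1.89).

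With globins in the denominator and without enzyme UMIs, red blood cells had the highest level of 1 of the 36 genes. This was Sec61g, a small subunit of the Sec61 channel. Globins took 75.7% of the UMIs of red blood cells, which lowers the CPM of every other gene. With globins in the denominator 29 of the 36 genes were lowest in this class, and with globin UMIs left out of every class 2 were, Dnajb9 and Sec61a1. The share of all genes was not computed for either count. Sec61g had 988 UMIs in 304 of 414 cells, with at most 18 in 1 cell, and the next member, Sec61b, had 63 UMIs. The level of Sec61g was 1345.4 CPM without enzyme UMIs (1262.8 to 1431.9), above the acinar level of 1255.2 CPM, and 5716.8 CPM when globin UMIs were also left out. Sec61b was at 85.8 CPM, and Sec61a1, the pore subunit, at 8.17 CPM from 6 UMIs. The UMIs of Sec61g over those of Sec61b came to 15.7 in red blood cells and to between 1.12 and 2.50 in the other 10 classes. A UMI of Sec61g in red blood cells was thus not accompanied by the other channel subunits in the proportion seen elsewhere.

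**Figure D5:**
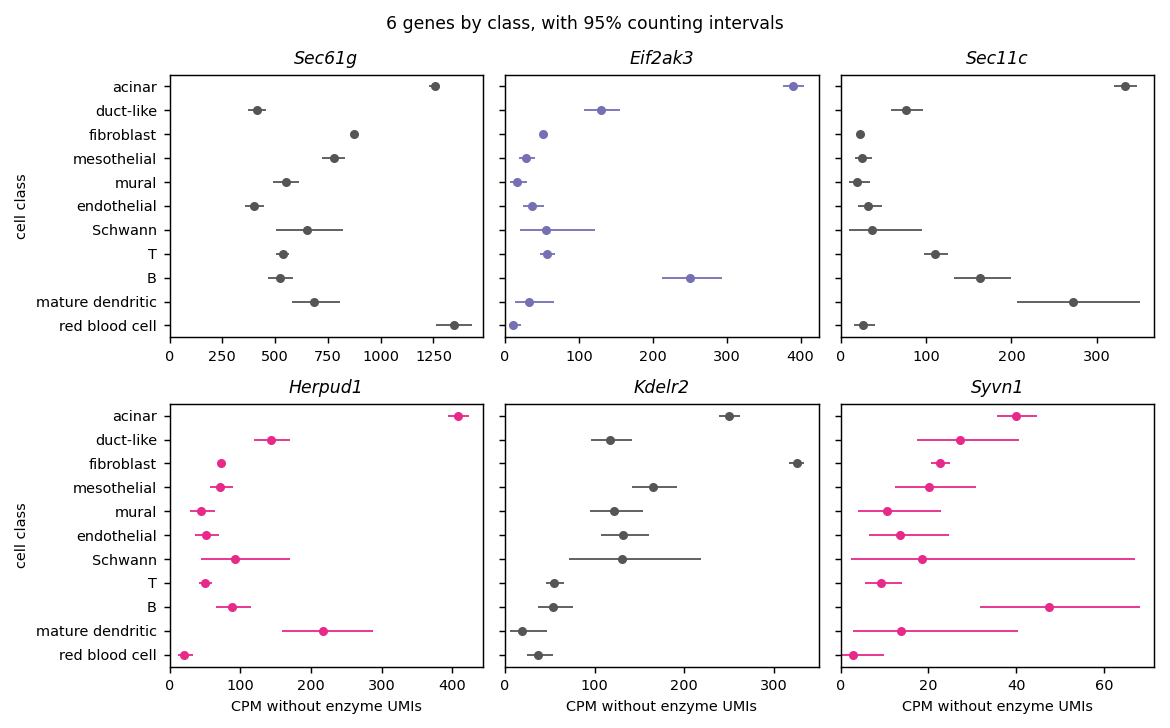
Level of 6 genes in 11 cell classes as CPM without enzyme UMIs, with 95% counting intervals, each panel on its own linear axis from 0. Sec61g is highest in red blood cells (1345.4) and acinar cells (1255.2), Eif2ak3 is second highest in B cells (250.3), Sec11c and Herpud1 are second highest in mature dendritic cells (271.7 and 216.4), and Kdelr2 is highest in fibroblasts (325.3).

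The share of cells with a UMI followed depth. As counted, 25 of the 36 genes had a UMI in at least 50% of acinar cells. With each cell thinned to 800 UMIs this held for 2, Pdia2 in 50.1% and Sec61g in 50.4% of acinar cells. The share of all genes was not computed, so both counts are a description and not a trait of the 36. In thinned fibroblasts Pdia2 was found in 1.55% and Sec61g in 53.4% of cells. Sel1l was found in 42.7% of thinned acinar cells, 9.60% of thinned fibroblasts and 4.88% of thinned T cells. Before thinning, 17.4% of fibroblast and 43.2% of T cell Sel1l UMIs would be free RNA in the acinar proportion to the enzymes. That proportion is of the acinar class as a whole. Within it Sel1l was 1.58-fold higher in nuclear-RNA-rich than in nuclear-RNA-poor barcodes without enzyme UMIs, and shares at another proportion were not computed.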

How the data were processed

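Single cells of 1 Scap f/f pancreas library were prepared by the authors with the 10x Genomics 3′ v3.1 kit after collagenase digestion and dead cell removal, and reads were aligned to mm10 with Cell Ranger 7.1.0. The authors deposited raw counts of UMIs for each gene in each barcode. Barcodes with as few as 500 UMIs were present, so these counts precede the cell filters of the methods, and free RNA was not removed here.

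The 36 genes, the marker gates and the pathway lists were chosen with earlier results of these data known. All 36 members were described. Of each wider list the 2 genes with the highest and the 2 with the lowest ratio of acinar to fibroblast cells were named, among those with at least 20 UMIs.

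The limits on barcodes were above 800 UMIs, below 100000 UMIs and below 15% mitochondrial UMIs. Acinar cells had at least 20% digestive enzyme UMIs and all other classes had under 10%. Fibroblasts had at least 2% UMIs of Col1a1, Col1a2, Col3a1 and Pdgfra, and red blood cells at least 20% globin UMIs. Other classes needed at least 3 UMIs of 2 markers and 0.1% of UMIs. Barcodes that passed several gates were left out, and endocrine cells, macrophages, neutrophils and mast cells, with fewer than 30 cells each, were not described.

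UMIs were summed per class and scaled to 1000000. Levels have exact Poisson intervals, shares Clopper-Pearson intervals and ratios conditional binomial intervals, all at 95% and covering counting error only. Ratios of 2-fold were counted among genes with at least 20 UMIs over both classes. Where the classes differ in size, genes with few UMIs can reach 2-fold by counting error, and the shares of all genes include them. With 1 library no test was made. Doublets were called by Scrublet (scanpy 1.11.5, expected doublet rate 0.08), which marked 537 of 10947 barcodes (4.91%), which were left out only as an alternative. Python 3.11.15, numpy 2.4.6, scipy 1.17.1 and pandas 2.3.3 were used, and the functions were tested on simulated data. Ddit3 has 2 gene identifiers, of which 1 held no UMIs. Spans were taken from GENCODE M21 and promoters from RefSeq (GRCm38.p6). A planned search of protein ends for the ER retrieval signal was not run.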

Additional observations from a re-analysis of the deposited data

How the results depend on the processing

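Without enzyme UMIs, members at least 2-fold higher in acinar cells than in fibroblasts went from 11 to 22 and those lower from 3 to 0, members higher in duct-like than acinar cells from 2 to 0 and those lower from 15 to 24, and members highest in acinar cells from 20 to 31. With other secreted acinar products also left out these were 24 higher, 0 lower and 32 highest. A call at 1.5-fold gave 17 higher, a Malat1 limit of 0.25% gave 5 higher in the nuclear-RNA-rich barcodes, and thinning lowered the members found in at least 50% of acinar cells from 25 to 2. With fewer than 10000 UMIs per barcode, the upper limit of the paper, the ratio of Ern1 over all UMIs turned to 0.977. The members at least 2-fold higher in acinar cells than in fibroblasts then went from 11 to 8, and those highest in acinar cells from 20 to 16. Except for leaving out enzyme UMIs, the share of all genes was not computed for any alternative. The member counts under the other alternatives are therefore a description and not a trait of the members. The mean of per-cell CPM moved the ratio of 25 members beyond its counting interval and took 2 across 1, Dnajb9 from 1.02 to 0.828 and Syvn1 from 1.01 to 0.883. Over the 10 alternatives that could change a ratio, 22 members kept a ratio of acinar to fibroblast cells above 1, 3 kept one below 1, and 11 had both. The ratio was at least 2-fold in every one for 8 members. Erp27 gave no ratio with free RNA subtracted. A mural gate without Mcam, chosen after seeing the data because 259 barcodes passed both that gate and the endothelial one, left the counts of 11 higher, 3 lower and 20 highest in acinar cells as they were. No paired analysis was possible because there was 1 library. With no replicate, differences between mice, dissections or libraries were not measured, and depth limits the rarer classes: 44 duct-like cells, 51 Schwann cells and 58 mature dendritic cells.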
